A study of Mus musculus with 8 samples.

Results

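The comparison was of kidneys that lack both Col4a3 and osteopontin with kidneys that lack Col4a3 alone, and it took in 6 of the 8 arrays of the series, 3 per group. Groups were taken from the genotype labels Col4a3-/-OPN-/- (called double mutant) and Col4a3-/- (called single mutant), so both groups share the Col4a3 deletion and differ in the osteopontin deletion. The other 2 arrays are of wild type kidneys. All mice were 2 months old, and total RNA of a snap-frozen whole kidney was put on 1 array per mouse. The labels used here do not give strain, sex, litter, or the way in which either allele was made. Of 22180 named genes, 7145 were bright enough to test, which took a mean log2 level above 6.64 (the 75th percentile over probe sets). Of these, 113 passed only through the double mutants, being at or under that level over the other 5 arrays, and 106 only through the single mutants. Such genes are pointed out where they are described. Described lists that hold genes passing only through the double mutants are also given over all measured members.

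The product of Col4a3 is a type IV collagen chain that the basement membrane of the glomerulus needs. Mice without it are a model of Alport syndrome, an inherited disease in which filtration fails, tubules are injured and the interstitium scars. Osteopontin is a secreted phosphoprotein that binds integrins and CD44. It is low in most healthy tubule cells, is made in quantity by injured ones, and is known for drawing in macrophages and for its ties to fibrosis. The title of the series names the question, which is whether loss of osteopontin lessens the kidney pathology of Col4a3-deficient mice.

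The 6 mutant kidneys were not of one sex, which bears on every result here. Xist, which shuts down an X chromosome in female cells, was at 10.02, 4.62 and 8.93 in single mutants 1 to 3 and 9.59, 8.85 and 4.52 in double mutants 1 to 3. Single mutant 2 and double mutant 3 were therefore read as male and the other 4 mutants as female, and both wild type mice, at 4.64 and 4.63, were read as male. Uty, a Y-linked gene too dim for the test, measured 7.30 and 7.40 in wild type. It measured 4.58, 7.31 and 4.57 in single and 4.57, 4.46 and 7.05 in double mutants. The Y-linked genes Kdm5d and Eif2s3y divided the arrays in the same way. Xist passed the brightness filter only through the double mutants. The 2 male mutants also stood apart as arrays, since the array weights that limma estimates were 0.285 and 0.356 for them and 0.853 to 2.10 for the others. Across all probe sets they correlated with each other at 0.983, while the male single mutant reached only 0.969 and 0.963 with its own group. With 1 male per group, sex and the state of that kidney cannot be told apart. Col4a3 itself measured 8.77 and 8.42 in wild type, 7.65, 7.67 and 6.60 in single and 6.82, 6.13 and 7.60 in double mutants, so every mutant array was below both wild type arrays. Whether its probes lie inside the deleted stretch was not checked.

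For most tested genes the means of double and single mutant kidneys were close to each other. No gene passed an adjusted p of 0.05 in limma in either direction, and the smallest adjusted p was 1.0. Before adjustment 63 genes (0.882% of those tested) were higher and 41 (0.574%) lower at a p under 0.05, which is 1.46% in either direction. The median absolute difference over all tested genes was 0.10 on the log2 scale and its 95th percentile 0.38, beside a median standard error of 0.17. Only 19 genes differed by more than 1, of which 13 were higher and 6 lower in double mutants. The number of genes at an unadjusted p under 0.05 was 104 with all arrays, 468 without single mutant 2 and 356 without double mutant 3, with none called in either case.

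A description that needs no model is whether all 3 arrays of a group lay above all 3 of the other. Double mutants lay wholly above single mutants for 144 genes (2.02% of those tested) and wholly below for 214 (3.00%), or 5.01% in either direction. Labels dealt at random to 3 and 3 arrays would on average separate more genes than this. Separation of a gene is thus not by itself evidence of a difference. With a term for sex in the fit, 167 genes (2.34%) were higher and 106 (1.48%) lower at an unadjusted p under 0.05 (3.82% in either direction), with the smallest adjusted p at 0.993. Among the 4 females alone the counts were 488 higher (6.83%) and 228 lower (3.19%), with the smallest adjusted p at 0.16. The genes described here are therefore ordered by size and by separation of the arrays, and none of them was called.

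**Figure D1:**
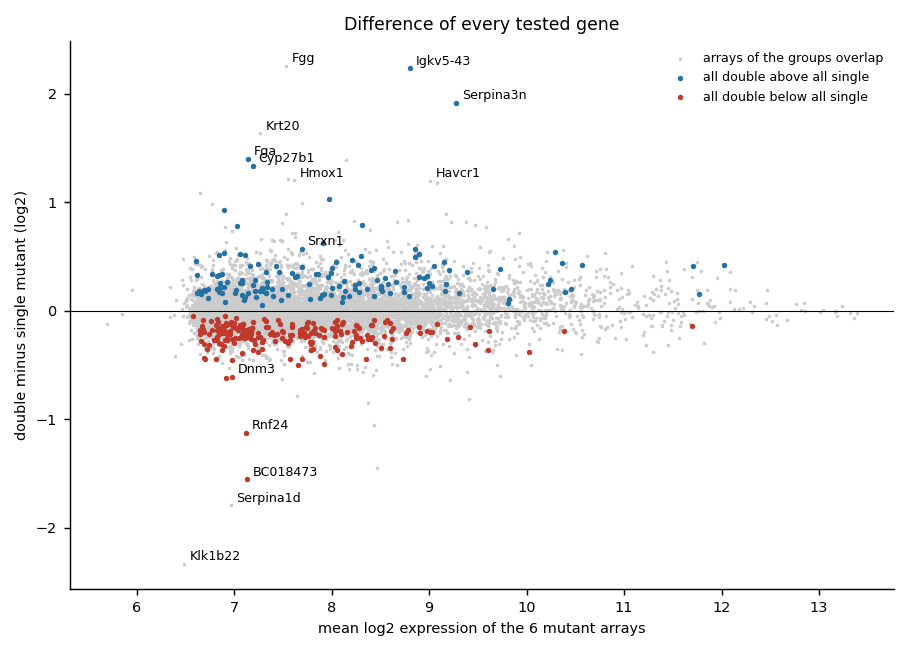
Difference between double and single mutant (vertical axis, log2) against mean level of the 6 mutant arrays (horizontal axis, log2) for the 7145 tested genes, 1 point each. Blue and red points are the 144 and 214 genes whose arrays do not overlap, and most genes lie near 0, with Fgg, Igkv5-43 and Serpina3n at the top and Klk1b22, Serpina1d and BC018473 at the bottom.

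Serpina3n had the smallest p among the higher genes. It encodes a secreted inhibitor of serine proteases that rises in acute-phase responses. It measured 7.55, 9.17 and 8.24 in single mutants 1 to 3 and 10.75, 9.84 and 10.12 in double mutants 1 to 3, against 5.63 and 5.91 in wild type. Every double mutant was above every single mutant, and every single mutant was above wild type. The mean difference of 1.92 (3.77-fold, SE 0.40, unadjusted p = 0.00147) did not pass after adjustment in limma. It was 2.40 among females and 0.95 in the male pair. Serpina3n has close neighbours of like sequence in its gene cluster, and how far its probes tell them apart was not checked.

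The 3 chains of fibrinogen, the clotting precursor that the liver makes and that injured tubules can also make, were all at higher levels in double mutants. Fgg, the gamma chain, measured 5.98, 5.85 and 7.39 in single and 7.23, 9.14 and 9.62 in double mutants. Double mutant 1 was just below single mutant 3, so the groups overlapped, while double mutants 2 and 3 were above all others. Fga, the alpha chain, measured 6.63, 6.14 and 6.56 in single and 6.70, 8.11 and 8.72 in double mutants and did not overlap, though double mutant 1 exceeded single mutant 1 by little. Fgb, the beta chain, was too dim for the test, at 4.72, 4.63 and 5.45 in single and 5.51, 6.46 and 6.97 in double mutants.

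For Fgg the mean difference was 2.26 (4.78-fold, SE 0.67, unadjusted p = 0.0102), and for Fga it was 1.40 (2.64-fold, SE 0.45, unadjusted p = 0.0151). In the male pair Fgg differed by 3.77 and Fga by 2.58, against 1.502 and 0.81 among females. Both genes passed the brightness filter only through the double mutants, the group in which they were high. Of 9 measured genes of a liver list 2 had a difference above 0, with a median of -0.04. Albumin (Alb), too dim for the test, measured 6.88, 4.88 and 8.04 in single and 7.37, 6.96 and 5.45 in double mutants. Transthyretin (Ttr), a carrier of thyroid hormone and the only tested gene of that list, measured 8.80, 10.55 and 9.09 in single and 9.44, 9.90 and 11.08 in double mutants and 10.61 and 11.61 in wild type. Every array read as male, wild type included, had more Ttr than every array read as female. Among the mutants double mutant 3, a male, had the highest Ttr, Fgg and Fga levels and the next to lowest Alb level. The part of liver genes in these results was not tested. Fibrinogen chains are neighbours in the genome, and the promoters of the 3 chains are printed with that of Serpina3n because these genes differed in the same direction.

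The bases before the start of each gene, from RefSeq on the mouse build GRCm38.p6, are given 5′ to 3′ along the gene. For Serpina3n the start used differs from the RefSeq gene start at 104406646, which lies inside the printed stretch. Capitals mark letters that match a motif searched on both strands from 250 bases before to 50 after the start. These were STAT (TTCNNNGAA), C/EBP (TTGCNNAA), AP-1 (TGANTCA) and the antioxidant response element (TGACNNNGC).
Serpina3n, chr12:104406458-104406707, plus strand: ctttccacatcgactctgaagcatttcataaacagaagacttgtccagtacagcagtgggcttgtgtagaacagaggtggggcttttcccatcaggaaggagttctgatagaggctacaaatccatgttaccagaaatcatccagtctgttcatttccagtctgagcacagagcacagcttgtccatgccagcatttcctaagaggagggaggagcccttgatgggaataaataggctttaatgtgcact
Fgg, chr3:83007474-83007723, plus strand: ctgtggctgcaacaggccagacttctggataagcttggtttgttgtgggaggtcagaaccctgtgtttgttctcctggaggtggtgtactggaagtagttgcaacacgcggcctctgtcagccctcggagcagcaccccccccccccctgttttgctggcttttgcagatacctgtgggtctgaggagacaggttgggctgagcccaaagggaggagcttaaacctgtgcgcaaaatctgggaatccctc
Fga, chr3:83025903-83026152, plus strand: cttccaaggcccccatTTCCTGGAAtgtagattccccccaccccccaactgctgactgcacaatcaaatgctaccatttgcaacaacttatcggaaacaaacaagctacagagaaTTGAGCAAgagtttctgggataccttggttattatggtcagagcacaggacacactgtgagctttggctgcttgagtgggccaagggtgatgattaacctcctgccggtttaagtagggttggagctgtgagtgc
Fgb, chr3:83049864-83050113, minus strand: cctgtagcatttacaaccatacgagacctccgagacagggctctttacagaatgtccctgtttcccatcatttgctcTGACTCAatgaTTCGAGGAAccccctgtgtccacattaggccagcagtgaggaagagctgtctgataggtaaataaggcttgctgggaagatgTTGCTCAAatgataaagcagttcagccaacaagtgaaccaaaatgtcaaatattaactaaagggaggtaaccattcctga

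STAT and C/EBP factors are the textbook activators of acute-phase genes. Fga held TTCCTGGAA from -234 to -226 and TTGAGCAA from -135 to -128. Fgb held TTCGAGGAA from -162 to -154, TTGCTCAA from -80 to -73 and the AP-1 letters TGACTCA from -173 to -167. Neither Serpina3n nor Fgg had any of these letters in the window. Of 32851 mouse promoters, 8.30% held the STAT letters, 10.8% the C/EBP letters, 7.81% the AP-1 letters and 12.4% the antioxidant letters, and a match is a description only.

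Of the 24 measured members of the list of serine protease inhibitors and acute-phase proteins, 18 had a difference above 0, with a median of 0.14. Over all named genes 11246 of 22180 were above 0 and the median was 0.00. Only 10 members were bright enough to test, and 3 of those (Fga, Fgg and Cd14) passed only through the double mutants, so counts over the tested members are a description. All 10 were above 0, and 4, Serpina3n, Fgg, Fga and Lcn2, had an unadjusted p under 0.05 on the higher side, as did 0.882% of all tested genes. Lcn2, an iron-siderophore binding protein and a marker of tubule injury, measured 8.58, 9.55 and 8.05 in single and 9.37, 9.59 and 9.88 in double mutants. Single mutant 2 reached above double mutant 1, so the groups overlapped, and the mean difference was 0.89 (SE 0.35, unadjusted p = 0.0349). The sexes did not share the list's direction, since the median of the tested members was 0.88 among females and -0.13 in the male pair. Ceruloplasmin (Cp), the copper carrier, differed by 0.64 among females and -0.45 in the male pair. Lipopolysaccharide-binding protein (Lbp) differed by 0.96 and -1.09.

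**Figure D2:**
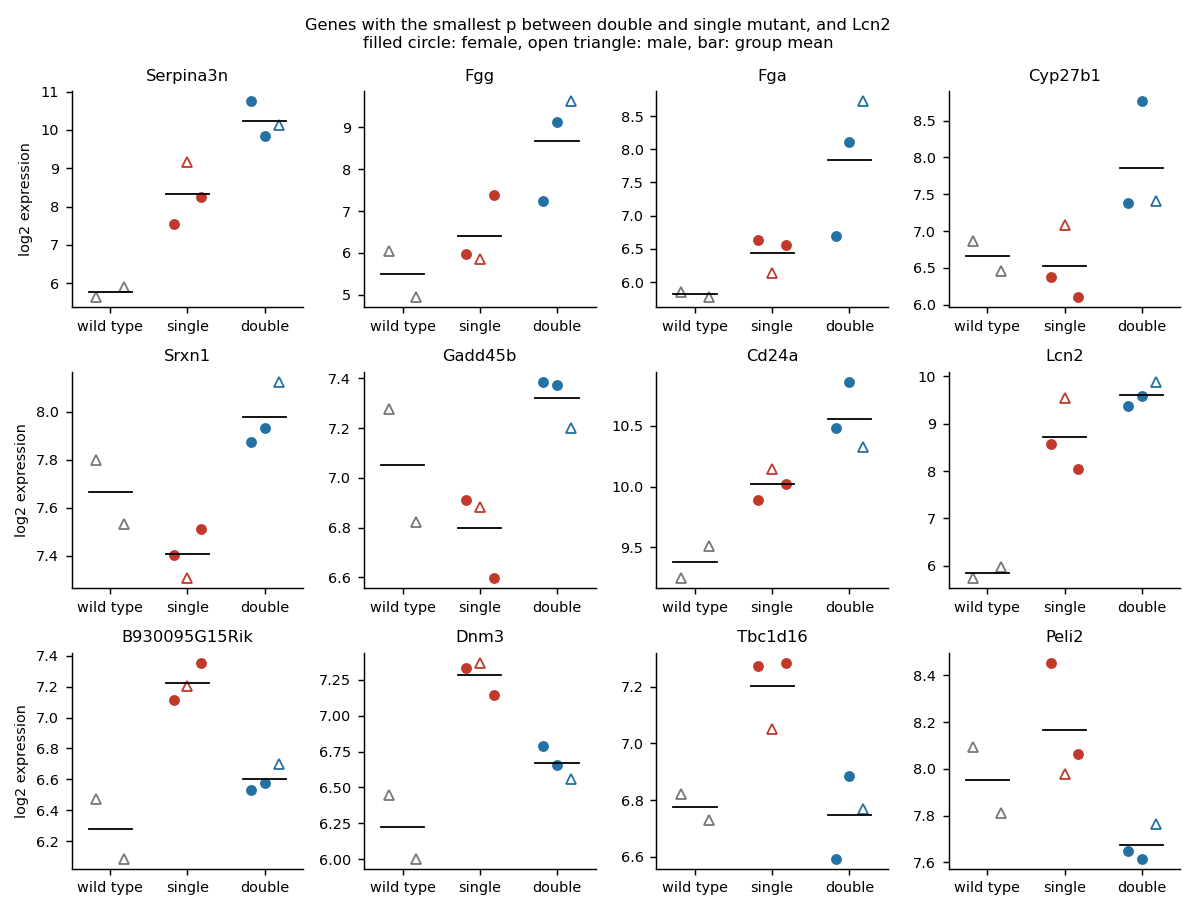
Log2 expression (vertical axes, 1 per gene) of 12 genes in each kidney, by group, with filled circles for females, open triangles for males and bars for group means. In double mutants Serpina3n sits between 9.84 and 10.75, above the single mutants at 7.55 to 9.17, and Dnm3 sits between 6.56 and 6.79, below the single mutants at 7.14 to 7.37.

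Srxn1 had the next smallest p among higher genes. It encodes sulfiredoxin, which restores peroxiredoxins that peroxide has overoxidised, and is a target of the antioxidant factor NRF2. It measured 7.40, 7.31 and 7.51 in single and 7.88, 7.93 and 8.12 in double mutants, with 7.80 and 7.53 in wild type. Its groups did not overlap, and both wild type values lay between them. The mean difference was 0.57 (1.48-fold, SE 0.13, unadjusted p = 0.00256), with 0.45 among females and 0.82 in the male pair.

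The Srxn1 promoter is printed because the gene is read as an antioxidant target, in the same form as before.
Srxn1, chr2:152105274-152105523, plus strand: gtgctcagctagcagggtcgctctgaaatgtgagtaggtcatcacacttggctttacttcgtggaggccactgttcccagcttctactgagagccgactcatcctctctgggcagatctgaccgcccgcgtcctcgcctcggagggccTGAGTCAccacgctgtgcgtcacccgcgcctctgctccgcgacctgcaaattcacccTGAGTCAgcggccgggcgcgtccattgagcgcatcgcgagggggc

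Srxn1 held the AP-1 letters TGAGTCA from -102 to -96 and again from -45 to -39. The antioxidant letters, as GCTAGGTCA on the other strand, stood from 29 to 37 after the start, outside the printed stretch.

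Among 23 tested NRF2 targets 19 were above 0, with a median of 0.21, and the median was 0.16 among females and 0.21 in the male pair. The arrays of 3 members did not overlap, all with double mutants above (2.02% of all tested genes), namely Srxn1, Txnrd1 and Pgd. Txnrd1, the thioredoxin reductase of the cytosol, measured 8.96, 8.84 and 8.80 in single and 9.36, 8.99 and 9.01 in double mutants. Its highest single mutant and lowest double mutant were nearly equal, and the difference was 0.25 (SE 0.14, unadjusted p = 0.116). Hmox1, heme oxygenase, measured 6.65, 7.67 and 6.72 in single and 9.22, 7.40 and 8.02 in double mutants. Double mutant 1 stood above the rest and single mutant 2 lay above double mutant 2, and the mean difference was 1.20 (SE 0.48, unadjusted p = 0.0382).

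Pgd, the enzyme of the pentose phosphate pathway that makes NADPH in the cytosol, measured 8.31, 8.61 and 8.50 in single and 8.92, 8.79 and 8.78 in double mutants. H6pd, its counterpart inside the endoplasmic reticulum, measured 7.85, 8.14 and 8.18 in single and 8.61, 8.43 and 8.40 in double mutants. For both genes every double mutant was above every single mutant, by means of 0.36 (SE 0.12, unadjusted p = 0.0197) for Pgd and 0.42 (SE 0.13, unadjusted p = 0.0125) for H6pd. The 8 tested enzymes that make NADPH had a median of 0.06, and the other 6 overlapped (2.02% of all tested genes were wholly higher). Pgd is the same gene that was counted among the NRF2 targets. The NRF2 list was not above wild type, with medians against it of -0.26 in single and 0.00 in double mutants, which share the wild type arrays.

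Cyp27b1, the enzyme of the proximal tubule that makes active vitamin D, measured 6.38, 7.08 and 6.10 in single and 7.38, 8.76 and 7.41 in double mutants. All double mutants were above all single mutants, double mutant 2 was above the other double mutants, and the gene passed the filter only through this group. The mean difference was 1.33 (2.52-fold, SE 0.41, unadjusted p = 0.0113), and it was 1.84 among females and 0.33 in the male pair. Of 21 tested genes of vitamin D and phosphate handling 8 were above 0, with a median of -0.02, so Cyp27b1 was not joined by its list. Over all 24 measured members 9 were above 0, with a median of -0.02. Slc8a1, the sodium-calcium exchanger, lay lower in every double mutant, at 7.82, 7.78 and 7.42 against 8.22, 7.90 and 8.14 (SE 0.19, unadjusted p = 0.0586).

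Of 31 measured markers of tubule injury 30 had a difference above 0, with a median of 0.42. Of the 24 tested ones 23 were above 0, with a median of 0.43, and medians of 0.48 among females and 0.18 in the male pair. At an unadjusted p under 0.05, 4 were higher (Cd24a, Cdkn1a, Lcn2 and Sprr1a, against 0.882% of all genes) and 1 was lower (Lgals3). Cd24a, a surface glycoprotein of injured and regenerating tubule cells, measured 9.89, 10.15 and 10.02 in single and 10.48, 10.86 and 10.33 in double mutants. Its groups did not overlap, wild type lay lowest at 9.24 and 9.51, and the difference was 0.54 (SE 0.17, unadjusted p = 0.0127).

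Havcr1 (KIM-1), a receptor that injured proximal tubule cells use to take up debris, measured 8.57, 9.43 and 7.23 in single and 7.58, 10.49 and 10.76 in double mutants. Wild type measured 4.78 and 7.92, so wild type 2 was above single mutant 3 and double mutant 1. Double mutant 1 was below single mutants 1 and 2 and the other double mutants were above every single mutant, so the mean difference of 1.20 had an SE of 1.08. Krt20, a keratin of damaged tubules, measured 6.74, 7.26 and 5.36 in single and 6.25, 9.14 and 8.87 in double mutants. It showed the same order, with double mutant 1 at the level of single mutants, and a difference of 1.63 (SE 0.78, unadjusted p = 0.069). Krt20 passed the filter only through the double mutants and Lgals3, described next, only through the single mutants. Lgals3, galectin of macrophages and injured epithelium, lay lower in every double mutant at 6.64, 6.42 and 6.53 against 6.72, 6.89 and 6.92, and the difference was -0.31 (SE 0.13, unadjusted p = 0.0393).

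Genes of growth arrest held both directions. Gadd45b, a stress-induced growth arrest protein, measured 6.91, 6.88 and 6.60 in single and 7.39, 7.37 and 7.20 in double mutants. The groups did not overlap and the difference was 0.52 (SE 0.16, unadjusted p = 0.0109). Cdkn1a (p21), the cell cycle inhibitor induced by p53, measured 6.83, 7.74 and 7.03 in single and 8.15, 8.87 and 7.55 in double mutants, with 8.65 and 8.22 in wild type. Its difference was 1.58 among females and -0.19 in the male pair. Mdm2, the p53 ubiquitin ligase, was above all single mutants in every double mutant with a difference of 0.24 (SE 0.10, unadjusted p = 0.052). The 13 tested genes of growth arrest had a median of 0.03. Ccnd1, cyclin D1, differed the other way at 9.40, 9.76 and 9.70 in single and 9.09, 9.08 and 9.41 in double mutants, with a single overlap and a difference of -0.43 (SE 0.15, unadjusted p = 0.0248).

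Other genes among the 12 smallest p on the higher side had smaller differences, and most of them separated the groups. Guca2b, uroguanylin, a peptide that acts on salt handling, measured 10.46, 10.37 and 10.23 in single and 10.70, 10.996 and 10.64 in double mutants. Wild type stood at 11.06 and 11.03, so double mutants lay between single mutants and wild type, and the difference was 0.42 (SE 0.13, unadjusted p = 0.0141). Gna13, a G protein alpha subunit, differed by 0.34 (SE 0.11, unadjusted p = 0.0127), the amino acid transporter Slc36a4 by 0.52 (SE 0.18, unadjusted p = 0.0181) and Sh3bgrl, a small thioredoxin-fold protein, by 0.50 (SE 0.17, unadjusted p = 0.0187). None of these 3 overlapped.

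By size among genes that did not overlap, the list of higher genes also held Gm15217 (1.03), the aldehyde dehydrogenase Aldh1a7 (0.93), the lipid droplet coat protein Plin2 (0.79), the epithelial ETS factor Elf3 (0.78) and the pyruvate kinase Pklr (0.63). Aldh1a7 measured 6.49, 6.32 and 6.49 in single and 7.88, 7.50 and 6.72 in double mutants. Double mutant 3, the male, was close to the single mutants and the female double mutants were well above. Elf3 passed the filter only through the double mutants, and its difference was 1.14 among females and 0.05 in the male pair.

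On the lower side the genes with the smallest p were of mixed function and differed by less than 1. B930095G15Rik, a gene known by a clone name only, measured 7.12, 7.20 and 7.35 in single and 6.53, 6.57 and 6.70 in double mutants, and 6.47 and 6.08 in wild type. Dnm3, a dynamin that pinches vesicles from membranes, measured 7.33, 7.37 and 7.14 in single and 6.79, 6.66 and 6.56 in double mutants, and 6.45 and 6.001 in wild type. Both genes passed the filter only through the single mutants. Their groups did not overlap, and double mutants lay between single mutants and wild type. The differences were -0.62 (SE 0.14, unadjusted p = 0.00225) for B930095G15Rik and -0.61 (SE 0.15, unadjusted p = 0.00374, 1.53-fold lower) for Dnm3. Tbc1d16, a GTPase-activating protein for Rab proteins of vesicle traffic, measured 7.27, 7.05 and 7.28 in single and 6.59, 6.88 and 6.77 in double mutants, again without overlap, and differed by -0.46 (SE 0.13, unadjusted p = 0.00769).

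The families of these genes did not follow them. Of 24 tested dynamins and endocytic adaptors 16 were above 0 with a median of 0.08, and of 19 Rab and TBC domain genes 7 were above 0 with a median of -0.02. Over all 30 measured dynamins and adaptors 20 were above 0, with a median of 0.08. Epn2, an adaptor of that list, passed the filter only through the double mutants. Peli2, a ubiquitin ligase of toll-like and interleukin receptor signalling, measured 8.45, 7.98 and 8.06 in single and 7.65, 7.61 and 7.77 in double mutants, with a difference of -0.49 (SE 0.16, unadjusted p = 0.015). Gcn1, which activates a kinase that senses amino acid shortage, measured 8.78, 8.83 and 8.69 in single and 8.50, 8.34 and 8.42 in double mutants, with a difference of -0.35 (SE 0.12, unadjusted p = 0.0167). Utrn, utrophin, which ties the cytoskeleton to the basement membrane, measured 8.59, 8.74 and 8.39 in single, 8.17, 8.17 and 8.05 in double mutants and 7.76 and 7.28 in wild type. All 3 separated the groups, and utrophin in double mutants lay between the other groups.

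The remaining lower genes of the 12, Dip2a, Galnt14, Rcbtb1, Ctdspl and Nos1ap, had differences from -0.45 to -0.29 and did not overlap, and Dip2a and Nos1ap passed the filter only through the single mutants. By size, the lower genes that did not overlap also held BC018473 (-1.55), Rnf24 (-1.13), Tmtc1 (-0.50) and Hoxa9 (-0.45). For BC018473 a single array carried much of the value, since double mutants measured 7.52, 4.56 and 6.98 and single mutants 7.56, 8.50 and 7.67. Rnf24 was carried by single mutant 1, with 8.92, 6.93 and 7.19 in single and 6.32, 6.43 and 6.92 in double mutants.

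Lists of genes of immune cells and scar matrix were higher among females and lower in the male pair. In bulk kidney, fewer cells of a type and less RNA per cell cannot be told apart. Of 28 measured macrophage and monocyte genes 26 were above 0 with all 6 arrays, with a median of 0.37. Of the 12 that were tested, 3 (Cd14, Mrc1 and Cd53) passed only through the double mutants. The median of the tested genes was 1.06 among females, where 12 of 12 were above 0, and -0.58 in the male pair, where 1 of 12 was. The mean of the 12 genes was 7.27, 8.66 and 7.26 in single mutants 1 to 3 and 8.19, 8.38 and 8.12 in double mutants 1 to 3, against 6.34 and 6.56 in wild type. Single mutant 2 was thus above every double mutant, and the female single mutants were below every double mutant.

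Fcer1g, the signalling chain of Fc receptors, measured 7.29, 8.51 and 7.66 in single and 8.60, 8.90 and 8.43 in double mutants, and it was the macrophage gene with the smallest p (0.83, SE 0.30, unadjusted p = 0.0266). Cd68, a lysosomal protein of macrophages, measured 6.84, 8.46 and 7.05 in single and 8.003, 8.05 and 7.85 in double mutants, where single mutant 2 was the highest array. C1qb, a chain of the complement starter C1q that macrophages make, differed by 1.22 among females and -0.80 in the male pair. All 5 tested genes of MHC class II antigen presentation were above 0 among females (median 0.96) and below 0 in the male pair (median -0.52). For H2-Aa, a class II chain, the differences were 1.004 and -0.54. The 7 complement genes had medians of 1.04 and -0.80. These were the values of C1qa and C1qb, which the macrophage list also holds.

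With all 6 arrays 18 of 23 tested genes of fibrillar collagen and matrix were above 0, with a median of 0.27, and over all 33 measured members 27 were, with a median of 0.22. The list of fibroblasts, pericytes and smooth muscle had 10 of 12 tested members above 0, with a median of 0.33, and 16 of 19 measured ones, with a median of 0.09. Of the tested matrix genes all were above 0 among females (median 0.68) and 3 in the male pair (median -0.72). Their mean was 7.96, 9.28 and 8.19 in single and 8.56, 8.90 and 8.68 in double mutants, and 7.23 and 7.15 in wild type. Single mutant 2 again exceeded every other array. Lox, which cross-links collagen, measured 6.84, 8.14 and 6.71 in single and 8.56, 7.90 and 7.38 in double mutants, and fibronectin (Fn1) measured 8.85, 10.92 and 9.28 and 9.86, 10.47 and 10.20. For both genes single mutant 2 lay far above the other single mutants. Acta2, the actin of smooth muscle and myofibroblasts, was above all single mutants in every double mutant, at 9.91, 10.04 and 9.80 against 9.34, 9.55 and 9.71 (0.39, SE 0.14, unadjusted p = 0.0233).

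**Figure D3:**
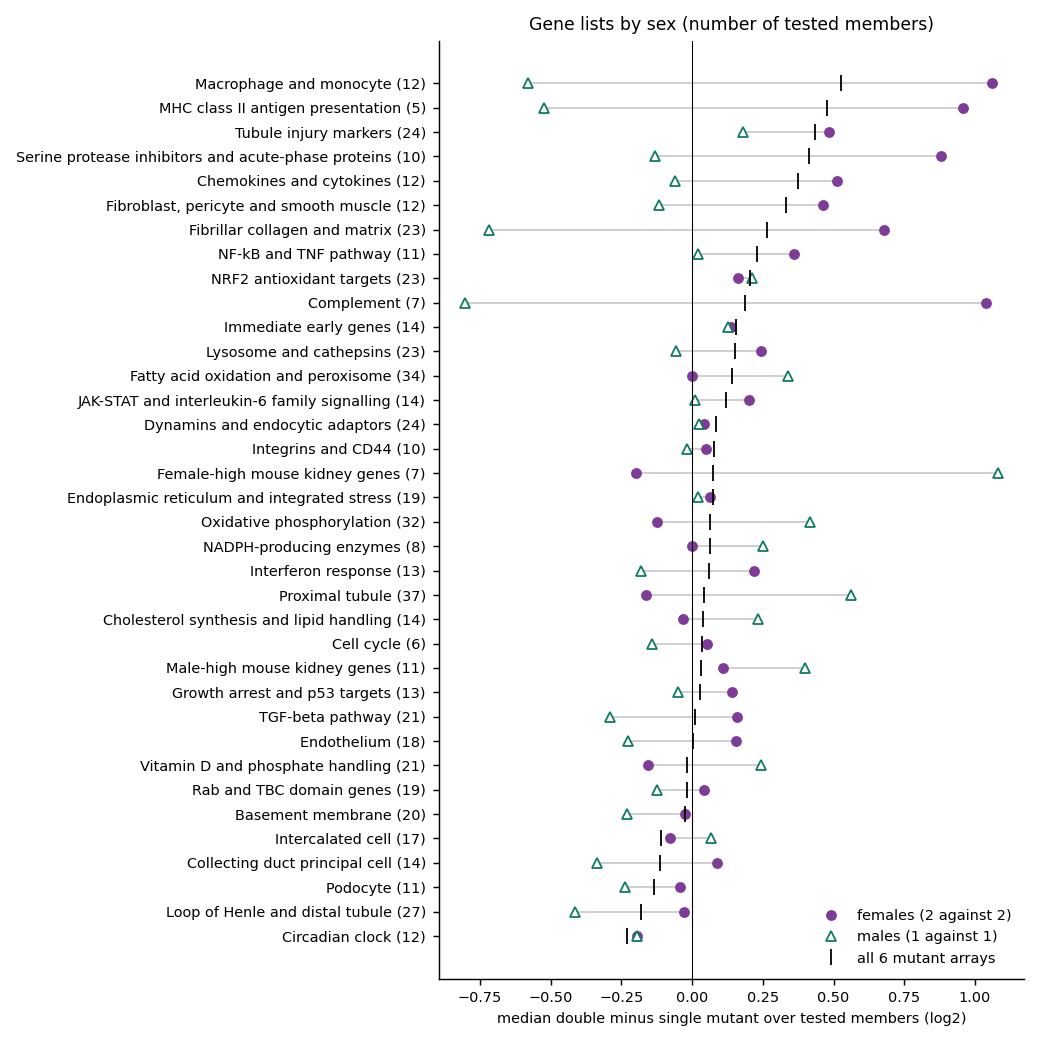
Median difference between double and single mutant (horizontal axis, log2) of the tested members of 36 gene lists, for 2 against 2 females (filled circles), 1 against 1 male (open triangles) and all 6 arrays (ticks), with the number of members in brackets. The circles of the macrophage, MHC class II, complement and matrix lists lie right of 0 and their triangles left of it, and the proximal tubule and oxidative phosphorylation lists lie the other way.

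Genes of the proximal tubule and of mitochondria had the opposite arrangement. Of 37 tested proximal tubule genes 8 were above 0 among females (median -0.16) and 34 in the male pair (median 0.56). Their mean was 10.29, 9.27 and 10.59 in single and 10.28, 10.14 and 9.93 in double mutants, and 10.70 and 10.68 in wild type, so single mutant 2 was the lowest array and double mutant 3 the next. The 32 tested subunits of oxidative phosphorylation had medians of -0.12 among females and 0.42 in the male pair. Slc13a1, the sulfate transporter of the brush border, was the only 1 of the 37 genes of the proximal tubule list, which does not hold Cyp27b1, whose groups did not overlap (2.02% of all tested genes were wholly higher), at 11.51, 11.24 and 11.75 in single and 11.81, 11.93 and 11.996 in double mutants (0.41, SE 0.16, unadjusted p = 0.0312).

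Of 34 tested fatty acid oxidation and peroxisome genes 24 were above 0 with all 6 arrays, with a median of 0.14. Among females 17 of the 34 were above 0, and in the male pair 30 were. Ech1, an enoyl-CoA isomerase, measured 10.56, 9.65 and 10.09 in single and 10.86, 10.64 and 10.48 in double mutants and differed by 0.56 (SE 0.23, unadjusted p = 0.0414). Cpt2, the inner carnitine palmitoyltransferase, measured 9.17, 8.54 and 9.09 and 9.76, 9.18 and 9.20, with every double mutant above every single mutant and a difference of 0.45 (SE 0.22, unadjusted p = 0.0783). For both genes single mutant 2 was the lowest array, and the list's median was 0.00 among females and 0.34 in the male pair.

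**Figure D4:**
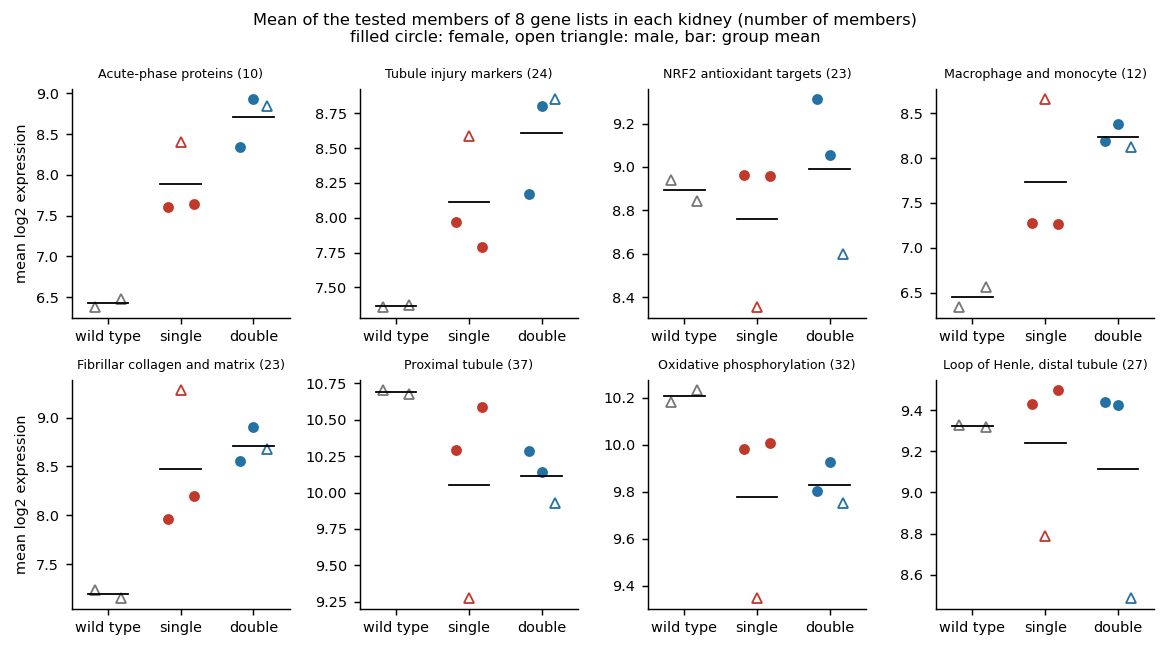
Mean log2 expression (vertical axes) of the tested members of 8 gene lists in each kidney, by group, with filled circles for females, open triangles for males and bars for group means. Single mutant 2, the male, is the highest single mutant in the acute-phase, injury, macrophage and matrix lists and the lowest in the other 4.

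The difference between the sexes was tested directly as an interaction, with 3 residual degrees of freedom. No gene passed, the smallest adjusted p in limma was 0.0518, and before adjustment 369 genes (5.16%) had a higher and 544 (7.61%) a lower difference in the male pair at a p under 0.05, which is 12.8% in either direction. Of the matrix list 17 of 23 were lower in the male pair at that threshold, of the macrophage list 10 of 12 and of the MHC class II list 5 of 5. Of the proximal tubule list 21 of 37 were higher in the male pair, and of oxidative phosphorylation 14 of 32. Across genes the female and the male difference correlated at -0.27, which is a description over genes that are not independent. The test rests on 1 male per group, and those arrays add nothing to its estimate of the spread, which comes from the wild type pair and the female pairs alone. Single mutant 2 was the outermost array in the mean of the matrix, macrophage and proximal tubule lists, and a difference of sex and of that single kidney cannot be told apart in these counts.

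Igsf6, an immunoglobulin superfamily protein of myeloid cells, had the smallest interaction p and passed the brightness filter only through the double mutants. It measured 6.53, 8.40 and 6.25 in single and 8.11, 7.94 and 7.08 in double mutants, and the male minus female difference was -2.96 (SE 0.25, unadjusted p = 7.63e-06, adjusted p = 0.0518). Without single mutant 1, which leaves 3 of the 4 mutant arms with 1 array, 1 gene passed the test, Gm3893, named after its value was seen (adjusted p = 0.036 in limma, 0.449 with all arrays). Scube1, a secreted and surface glycoprotein, measured 6.42, 8.39 and 6.28 in single and 7.17, 7.40 and 6.59 in double mutants, with a male minus female difference of -2.72 (SE 0.29, unadjusted p = 3.05e-05, adjusted p = 0.0518). In both genes single mutant 2 was the highest array and the female double mutants were above the female single mutants. Abi3bp and Mfap4, proteins of the extracellular matrix, Man1c1, a mannosidase of the Golgi, and Stab1, a scavenger receptor of macrophages and endothelium, had the same order, except that in Mfap4 single mutant 2 was below the female double mutants. Scube1, Man1c1 and Mfap4 also passed the filter only through the double mutants.

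In the other direction, 6 genes with a higher difference in the male pair were named. Dnase1, the secreted DNase, measured 10.73, 7.64 and 11.08 in single and 10.77, 10.13 and 9.88 in double mutants, and 11.88 and 11.80 in wild type. Folh1, a carboxypeptidase of the brush border, measured 9.71, 7.62 and 9.73 in single and 9.63, 9.38 and 9.12 in double mutants. Single mutant 2 was far below every other array in both genes. The male minus female difference was 2.70 (SE 0.40, unadjusted p = 0.000257, adjusted p = 0.0591) for Dnase1 and 1.71 (SE 0.23, unadjusted p = 0.00017, adjusted p = 0.0591) for Folh1. Hao2, a hydroxyacid oxidase of peroxisomes, Enpp6, a choline phosphodiesterase, and F13b, a subunit of a clotting factor, were likewise low in single mutant 2, at 7.41, 6.88 and 6.66. Snora44, a small nucleolar RNA, differed from these in that double mutant 3 was the high array, at 8.10, 8.24 and 10.71 in double against 9.51, 9.17 and 8.95 in single mutants.

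**Figure D5:**
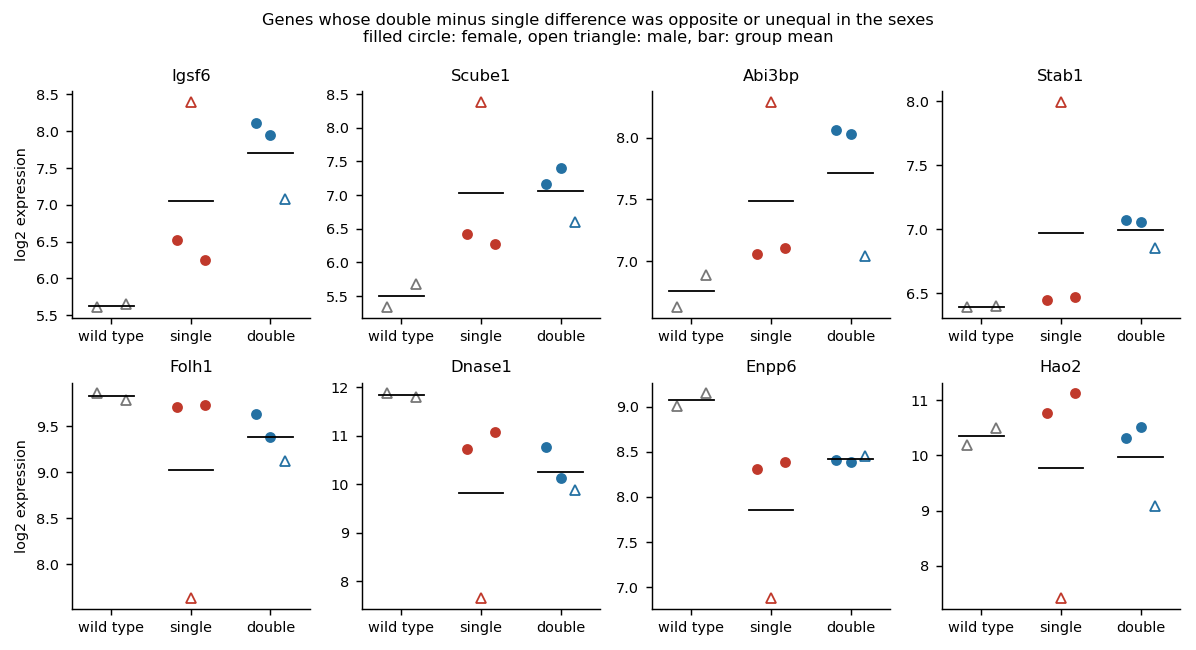
Log2 expression (vertical axes) of 8 genes with small interaction p in each kidney, by group, with filled circles for females, open triangles for males and bars for group means. Igsf6 and Scube1 are highest in single mutant 2, at 8.40 and 8.39, and Folh1 and Dnase1 are lowest there, at 7.62 and 7.64.

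The fit with a term for sex named some further genes, of which Plac8 passed the brightness filter only through the double mutants. On the higher side it named Scpep1, a serine carboxypeptidase (0.54, SE 0.11, unadjusted p = 0.0012), the keratin Krt8 (0.54, SE 0.13, unadjusted p = 0.00322) and Plac8 (0.65, SE 0.16, unadjusted p = 0.00446), besides Serpina3n, Srxn1 and Lcn2. On the lower side it named Ranbp3l, 2900092D14Rik, the proton pump subunit Atp6v1b1 of intercalated cells and Cyp2a4, with differences from -0.60 to -0.42. Atp6v1b1 measured 8.88, 7.96 and 9.33 in single and 8.38, 8.56 and 7.45 in double mutants. Within each sex the double mutants were below the single mutants, while the groups as a whole overlapped.

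Lists of the nephron beyond the proximal tubule and of podocytes had medians below 0 with all 6 arrays. Those of principal and intercalated cells were not below 0 in each sex. Of 27 tested genes of the loop of Henle and distal tubule 7 were above 0 (median -0.18), with medians of -0.03 among females and -0.41 in the male pair. Of 14 genes of collecting duct principal cells 5 were above 0 (median -0.11), with medians of 0.09 and -0.34, and Elf3, which is on this list, was wholly higher. Over all 18 measured members 6 were above 0, with a median of -0.06. Of 17 intercalated cell genes 7 were above 0 (median -0.11), with medians of -0.08 and 0.07. Of 11 podocyte genes 3 were above 0 (median -0.14), with medians of -0.04 among females and -0.24 in the male pair.

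Of 12 tested circadian clock genes 2 were above 0 (median -0.23), with medians of -0.20 among females and -0.20 in the male pair, and 6 of all 18 measured were above 0. Clock, an activator of the clock loop, was the only tested member whose groups did not overlap, and it was higher in double mutants, at 9.79, 9.76 and 9.70 against 9.61, 9.58 and 9.48 (0.20, SE 0.11, unadjusted p = 0.108). Per3, a clock repressor that passed the filter only through the single mutants, measured 7.33, 7.25 and 6.77 in single and 6.92, 6.41 and 6.57 in double mutants, with overlap. The time of day of collection is not in the labels.

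The lists of integrins, the TGF-beta pathway and the basement membrane had medians near 0 with all 6 arrays. The 10 tested integrins had a median of 0.08 with 6 above 0, the 21 genes of the TGF-beta pathway a median of 0.01 with 14 above 0, and the 20 basement membrane genes a median of -0.02 with 6 above 0. The sexes were split for the TGF-beta pathway, with 18 above 0 among females (median 0.16) and 3 in the male pair (median -0.29). Medians in the same order were -0.02 and -0.23 for the basement membrane and 0.05 and -0.02 for integrins. Of 12 tested chemokines and cytokines 10 were above 0 (median 0.37), with medians of 0.51 among females and -0.06 in the male pair. Cxcl10 and Il33 of this list passed the filter only through the double mutants. Over all 32 measured members 25 were above 0, with a median of 0.12. Of 11 genes of the NF-kB and TNF pathway 9 were above 0, and Tnfrsf1a, a TNF receptor, was higher in every double mutant at 8.47, 8.78 and 8.40 against 7.69, 8.09 and 8.36 (0.50, SE 0.19, unadjusted p = 0.0281).

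Across the 36 lists with at least 3 tested members, 16 had a median above 0 among females and below 0 in the male pair, and 7 had the reverse. Medians were above 0 in both sexes for 9 lists and in neither for 4. Over all tested genes the median was 0.01 among females and -0.04 in the male pair. No member of the neutrophil, adrenal gland or skeletal muscle lists was bright enough to test, and the means of those lists lay between 4.75 and 5.24 on every array.

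Immunoglobulin genes set 1 kidney apart. Igkv5-43, a kappa light chain segment, measured 7.49, 7.82 and 7.75 in single and 11.94, 8.03 and 9.78 in double mutants, and 7.91 and 9.12 in wild type. Its difference of 2.23 (SE 0.85, unadjusted p = 0.0309) was carried by double mutant 1. Ighm, the heavy chain of IgM, measured 7.13, 7.93 and 7.30 in single and 10.08, 7.57 and 8.86 in double mutants. Over all 22 immunoglobulin genes of the array, a set chosen after these values were seen, double mutant 1 was the highest array for 18, with a median of 7.40 there and of 4.54 to 5.07 on the other arrays. Segments of this family share sequence, so single members are uncertain.

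Both mutants can be set beside wild type for the same lists, though the comparisons share arrays and wild type was all male. The acute-phase list had a median of 1.31 above wild type in single and 1.94 in double mutants, and the injury list 0.62 and 1.17. For macrophage genes the values were 1.21 and 1.80, and for matrix genes 1.12 and 1.31. The proximal tubule list stood at -0.73 in single and -0.60 in double mutants, and oxidative phosphorylation at -0.45 and -0.35.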

How the data were processed

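Total RNA of whole kidneys from 2 wild type, 3 single mutant and 3 double mutant mice was measured on 1 array each, per the labels. The table that the authors deposited holds log2 levels of every probe set, and the sources used here do not say how the values were normalized. The unit was read from the range of 4.20 to 13.43, and array medians lay between 5.18 and 5.25. The labelling kit named in the labels is commonly used for small RNAs, while the probe sets are those of a gene array. Of 33793 probe sets 23521 name 1 gene, 1814 several and 8458 none. For genes with several probe sets the one with the highest mean was kept. The osteopontin gene is not reported here.

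Groups were compared in 1 model of all 8 arrays by lmFit and eBayes of limma 3.58.1 (R 4.3.3; 5 residual degrees of freedom), with two-sided p and Benjamini-Hochberg adjustment over the 7145 tested genes. A second fit had a term for sex as read from Xist, and an interaction tested the sexes against each other. Other settings tried were the filter, the normalization, the probe set per gene, the variance model, array weights, the arrays in the fit, the replicate number as a block, and each array left out. Nothing in the labels beyond the number of mice says how replicates were drawn, so p-values measure the spread between these kidneys. Precision is limited by how few arrays there are. Named genes are the 12 with the smallest p in each direction, the 10 with the largest difference among those that did not overlap, the 6 with the smallest p in each direction in the sex and interaction fits, members of 43 gene lists, and checks of the labels. Members, lists and settings were chosen with earlier results of these data known. The fits were tested on simulated data. Figures come from matplotlib 3.10.9 under Python 3.11.15.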

Additional observations from a re-analysis of the deposited data

How the results depend on the processing

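No gene was called between double and single mutants under any of the 20 other settings that gave a test, so what moved were counts at an unadjusted p under 0.05 (104 with all arrays) and counts of genes whose arrays did not overlap (144 higher, 214 lower). The first was 273 with a term for sex, 710 without a filter, 252 with a filter at the 50th percentile, 744 with array weights and 716 in the 4 females, and between 73 and 468 with 1 array left out, where the lowest lacked double mutant 2. The counts without overlap were 736 and 866 without a filter, 336 and 396 with the filter at the 50th percentile and 1605 and 1312 in the 4 females, and with 1 array left out between 224 and 965 higher and between 420 and 887 lower. The looser filters test more genes and the smaller sets of arrays leave fewer that could overlap; the cause of the other shifts was not tested. For the interaction 913 genes became 2575 without a filter, and leaving out 1 array gave between 0 and 1 called. Cyclic loess was not counted for overlap.

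Of the 84 named genes, 8 changed the direction of the difference between double and single mutants in a tested setting. The list member among them was Mrc1, at 0.33 with all arrays and -0.11 to 1.10 with 1 array left out, lowest without single mutant 1. In the male pair, which gives no test, 19 had the opposite sign. Among the 12 genes named by the interaction alone the interaction kept its sign in every setting run, and the difference of double and single mutants did not for 7. For Folh1, Hao2, F13b and Dnase1 it was 0.36, 0.20, 0.32 and 0.44 with all arrays, -0.21, -0.53, -0.34 and -0.46 in the 4 females and -0.073, -0.28, -0.12 and -0.19 with array weights. With 1 array left out it ran from -0.34 to 0.71 for Folh1, -0.98 to 0.88 for Hao2, -0.50 to 0.82 for F13b and -0.65 to 1.07 for Dnase1, lowest without single mutant 2 in each. For Scube1 it was 0.024, -0.024 after quantile normalization and -0.35 to 0.70 with 1 array left out. For Stab1 (0.026) and Snora44 (-0.19) it ran from -0.24 to 0.54 and -1.04 to 0.27 with 1 array left out.

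With the replicate number of the labels as a block, 67 genes had an unadjusted p under 0.05 and 0 were called. Whether the numbers pair the kidneys cannot be told, since the male is number 2 among single and number 3 among double mutants. Deviations of same-numbered single and double mutants correlated at 0.26, -0.34 and -0.58. Single mutants 1, 2 and 3 were closest to double mutants 1, 3 and 2. The 2 males correlated at 0.54.

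Of the list medians, 709 of 756 values under other settings moved by less than the spread between kidneys, and 17 of the 47 that moved more were those of the male pair alone.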

Other observations

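Some genes fell into separate high and low levels that neither genotype nor sex orders, and they are given as values. Serpina1d, a paralog of alpha-1-antitrypsin, measured 10.87 and 4.31 in wild type, 9.92, 9.25 and 4.40 in single mutants 1 to 3 and 4.33, 4.34 and 9.52 in double mutants 1 to 3. It was near 4.3 or near 9 to 11 with nothing between, and its family shares sequence. Angptl7, a secreted angiopoietin-like protein, measured 10.92 and 11.22 in wild type, 10.18, 10.73 and 6.66 in single and 6.90, 6.75 and 9.55 in double mutants. Single mutant 3 and the female double mutants made up its low level. Klk1b22, a kallikrein of a family with near-identical members, measured 9.48 and 8.80 in wild type, 8.48, 4.78 and 9.70 in single and 5.29, 5.81 and 4.87 in double mutants. All double mutants and single mutant 2 were low, and the female single mutants were high with wild type.

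Genes known to differ between male and female mouse kidneys separated the mutants by the sex read from Xist more clearly than they placed wild type. Slco1a1, an organic anion transporter of the male proximal tubule, measured 4.39, 8.35 and 4.53 in single and 4.34, 4.36 and 8.20 in double mutants, and 8.89 and 10.35 in wild type. Slc7a12, an amino acid transporter high in females, measured 11.53, 6.29 and 11.71 in single and 11.33, 11.55 and 5.55 in double mutants, and 9.73 and 6.24 in wild type. Cyp4a14, a fatty acid hydroxylase also high in females, measured 11.38, 5.19 and 11.03, 11.87, 11.10 and 6.93 and 8.58 and 5.14 in the same order of groups. Single mutant 2 and double mutant 3 stood on the male side in all 3 genes, and wild type 1, read as male, lay between the sexes in Slc7a12 and Cyp4a14. The mean of 7 tested female-high genes was 10.75, 6.25 and 10.19 in single and 9.99, 10.19 and 7.23 in double mutants, and 9.26 and 8.34 in wild type, so both wild type arrays were above both male mutants and below every female mutant.

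Double mutant 1, the kidney with high immunoglobulin genes, was read for T cell genes too. Cd3e, a chain of the T cell receptor complex, measured 5.57, 5.99 and 5.63 in single and 7.32, 6.23 and 5.78 in double mutants. Cd4, the helper T cell coreceptor, measured 5.01, 5.73 and 4.98 and 6.37, 5.91 and 5.18. Among the mutants both were highest in double mutant 1, and both were too dim for the test. Ighm was the only 1 of 18 measured T, B and NK cell genes that was tested. Over those 18 genes the difference between double and single mutants was above 0 for 16, with a median of 0.13.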
